A study of Hydra vulgaris with 99 samples.

Results

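The foot of Hydra vulgaris was compared with the whole animal in 6 RNA-seq libraries, 3 of homeostatic feet and 3 of intact animals, chosen by their titles from the 99 libraries of a regeneration series. The foot libraries were made from the basal disk and the lower part of the peduncle, and the intact libraries from full homeostatic animals. All animals were of the strain Jussy, were fed and received no treatment, and each library pooled tissue of 20 to 25 animals. The other 93 libraries came from homeostatic heads and from regenerating tips sampled between 0 and 48 h after section. They were used here to fit the shared model and to read the foot loci in libraries outside the comparison.

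Hydra is a tube with a head of tentacles and mouth at the apical end and a foot at the basal end. Epithelial cells are displaced along the body column and differentiate at the ends, and in the foot the ectodermal cells become gland-like cells that secrete the material by which the polyp holds to its substrate. The peduncle is the stalk just above the basal disk. An intact animal contains its own foot, head and body column, so the comparison sets an organ against a mixture in which that organ is a part.

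The deposited identifiers name a transcript sequence (seq) and a locus (loc), and several sequences can belong to a locus. No name in the RefSeq gene table that was at hand matched them (0 of 79774 sequences), so roles cannot be given to single loci and the labelled tissue could not be checked against named foot markers. Results are given per locus, as the sum of the reads of its sequences, and per sequence where the difference matters. The 6 libraries held 30236636 to 35445288 reads, and 22767 to 23367 loci had at least 1 read in a library. Levels are in CPM (read counts scaled to a common library total) after TMM scaling, which corrects for differences in library composition. A locus was called when the edgeR quasi-likelihood test gave a Benjamini-Hochberg adjusted p under 0.05 and the log2 fold change of foot over intact was at least 1 in size.

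The foot differed from the intact animal at 2013 of 20883 loci tested, or 9.64%. Of these, 944 were higher in the foot (4.52% of loci tested) and 1069 were lower (5.12%). The median log2 fold change was 1.80 among the loci called higher and -2.05 among those called lower, against 0.035 over all loci tested. In 919 of the loci called higher, all 3 foot libraries stood above all 3 intact libraries, and in 1040 of those called lower all 3 stood below, where such separation was seen in 17.7% and 14.6% of all loci tested. Fewer cells of a type and less RNA per cell cannot be told apart in such bulk tissue.

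The changes were not symmetric in size. Among loci called higher, 407 (43.1%) had a log2 fold change of at least 2 and 31 (3.28%) one of at least 4, while among loci called lower 550 (51.4%) and 173 (16.2%) reached those sizes. As shares of all loci tested, 1.95% were called higher and 2.63% lower at a size of at least 2. The asymmetry was plain in loci well above the counting limit, those with a mean of at least 32 CPM over the 6 libraries (4697 loci). There, 157 loci were called higher and their largest log2 fold change was 3.76, so that none reached 4. In the same range 184 loci were called lower, 24 of them (13.0%) by 4 or more, with an extreme of -11.4. At the low end of expression, 155 loci called lower had at most 3 reads in each foot library, and in the intact animals these stood at 0.0513 to 21.3 CPM with a median of 0.321. Another 38 loci called higher had at most 3 reads in each intact library and 0.0943 to 1.42 CPM in the foot. With loci at 0 reads in a whole group placed at the bound that 3 reads per library allow, the medians were 1.78 and -1.96.

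**Figure D1:**
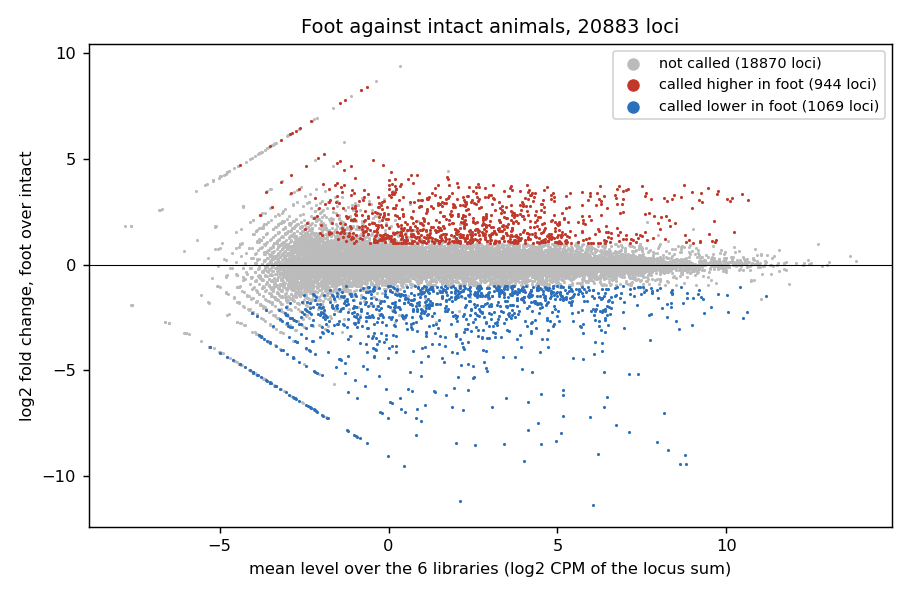
Log2 fold change of foot over intact (vertical axis) against mean log2 CPM over the 6 libraries (horizontal axis), with 1 point for each of 20883 loci, coloured by call. Above 32 CPM (5 on the horizontal axis) no locus called higher exceeded 3.76, while loci called lower reached -11.4, and the diagonal edges at low level are loci with few reads in a group.

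The flat upper edge was examined in loci with a high level in the foot and little signal in 4 other groups. For this, loci were taken whose foot level was at least 32 CPM and whose level in heads, in tips just below the 80% level, and in tips just above and just below the 50% level, all at 0 h, was at most 5% of the foot level. There were 55 such loci, all of them called higher in the foot, which this choice favours. In intact animals they stood at 10.4% of the foot level (median), with quartiles of 9.39% and 11.8% and extremes of 7.36% and 15.8%. The corresponding log2 fold changes lay between 2.66 and 3.76. Loci with little signal in the 4 other groups thus had similar ratios of foot to intact, and these lie at the upper edge of the plot of change against level. Apart from intact animals, no group sampled the column between the tips below the 50% cut and the foot. These loci may therefore not be confined to the foot. This selection was made after the data were seen and is a description.

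The foot libraries were not equal. Over 9811 loci whose log2 CPM averaged 3 or more, the foot libraries correlated with each other at 0.984 to 0.986 and the intact libraries with each other at 0.983 to 0.990. Foot replicates A and B correlated with the intact libraries at 0.899 to 0.905, whereas foot replicate C correlated with them at 0.919 to 0.928. In the 55 loci selected above, the median level was 245, 215 and 112 CPM in foot replicates A, B and C. It was 22.7, 20.2 and 16.0 CPM in intact replicates A, B and C. These loci were chosen by their foot level, so that feet above intact animals is favoured by the choice, and replicate C was the lowest of the feet. The cause of the lower values of replicate C was not tested. Without it, 2028 loci were called, 958 higher and 1070 lower, close to the counts with it.

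The labels of the feet were checked with loci chosen by contrasts that hold no foot or intact library. During basal regeneration from the 50% level the tip above the cut regrows a foot, and during apical regeneration the tip below the cut regrows a head. A set of 426 loci was called higher at 48 h than at 0 h in basal tips and changed more there than in apical tips of the same level. These loci took 6.36%, 5.98% and 3.97% of the reads in foot replicates A, B and C, against 1.41%, 1.41% and 1.49% in intact replicates A, B and C. Every foot library gave more of its reads to these loci than any intact library, with replicate C again lowest. In heads, which hold no foot, they took 1.64%, 1.55% and 1.5%, so these loci are not silent elsewhere. Of the 426 loci, 347 (81.5%) were called higher in the foot and 1 was called lower, where 4.52% and 5.12% of all loci were. A mirror set of 535 loci, raised in apical tips and more so than in basal tips, took 0.486%, 0.443% and 0.468% of the reads in the feet, against 1.72%, 1.77% and 1.59% in the intact animals. Replicate C did not stand apart from the other feet in this set. Of these 535 loci, 345 (64.5%) were called lower in the foot and 3 higher.

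**Figure D2:**
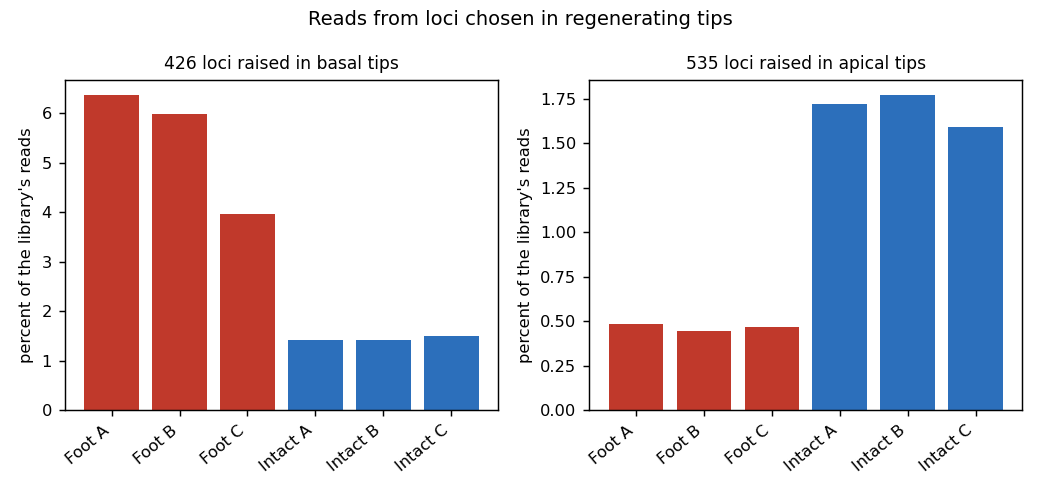
Percent of a library's reads (vertical axes, from 0) taken by 426 loci raised in basal tips (left) and 535 loci raised in apical tips (right), with 1 bar per library, feet in red and intact animals in blue. The left bars are 3.97 to 6.36% in feet and at most 1.49% in intact animals, and the right bars are at most 0.486% in feet and at least 1.59% in intact animals.

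Levels along the body were read in 4 groups outside the comparison: heads, tips just below the 80% level, and tips just above and just below the section at the 50% level, the tips being sampled at 0 h. The 80% level is that of decapitation and the 50% level is mid-gastric. Relative to the mean of these 4 groups, the median log2 CPM of the loci called higher in the foot was 2.23 in the foot, -0.0041 just below the 50% cut, -0.17 just above it, -0.18 at the 80% level and 0.28 in the head. The foot value was part of how these loci were chosen. The other 4 positions were read in libraries outside the choice. Intact animals entered it, however, and contain those tissues, so levels below the foot there are favoured. Among the 4 groups, the highest mean lay in the head for 500 of the 944 loci (53.0%), where this was so for 45.1% of all loci. It lay just below the 50% cut for 266 (28.2%), against 18.0% of all loci, and just above it for 108 (11.4%), against 21.0%. The 80% level was highest for 70 (7.42%), against 15.9%.

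For the loci called lower in the foot, the median log2 CPM on the same relative scale was -1.39 in the foot, where it was part of the choice, -0.72 just below the 50% cut, -0.45 just above it, -0.20 at the 80% level and 1.42 in the head. For 740 of these 1069 loci (69.2%) the head had the highest mean of the 4 groups, against 45.1% of all loci. Just below the 50% cut was the highest position for 48 of them (4.49%), against 18.0% of all loci. Intact animals entered the choice and contain the tissue of the 4 groups, so levels above the foot there are favoured.

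Heads were compared with the mid-gastric tips at 0 h, those on both sides of the 50% section, to see which foot loci also differ at the other end of the animal. This contrast, which uses no foot or intact library, called 16.9% of all loci higher and 11.8% lower in the head. Of the loci called lower in the foot, 696 (65.1%) were higher in the head, 174 (16.3%) were lower in the head, and 199 were not called. The median log2 fold change of head over mid-gastric tips in the 1069 loci was 2.09, against 0.075 over all loci. Most loci called lower in the foot were thus among those higher in heads, where they made up 19.7% of the loci so called. The choice against intact animals, which contain heads and body column, favours loci that are higher in those tissues.

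For the 174 loci that were lower both in the foot and in the head, the median relative log2 CPM was -1.45 in the foot, 0.41 just below the 50% cut, 0.74 just above it, 0.68 at the 80% level and -1.79 in the head. The foot, the head and the tips of the 50% level entered the choice of these loci too. The libraries of the 80% level did not, but intact animals did and contain that tissue, so this shape is a description.

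Some loci were raised at both ends. Of the 944 loci called higher in the foot, 300 (31.8%) were also called higher in the head than in mid-gastric tips, where 16.9% of all loci were. They made up 8.5% of the loci called higher in heads. Their median relative log2 CPM was 2.33 in the foot, between -0.55 and -0.41 in the 3 groups of tips, and 1.39 in the head. The foot, the head and the tips of the 50% level all entered the choice of these loci, so that this shape is a description. Another 119 (12.6%) were lower in the head, close to the 11.8% of all loci, and 525 were not called. With a log2 fold change of at least 2 asked of both contrasts, 71 of 407 loci (17.4%) were higher at both ends, where 7.57% of all loci were higher in the head by that rule.

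**Figure D3:**
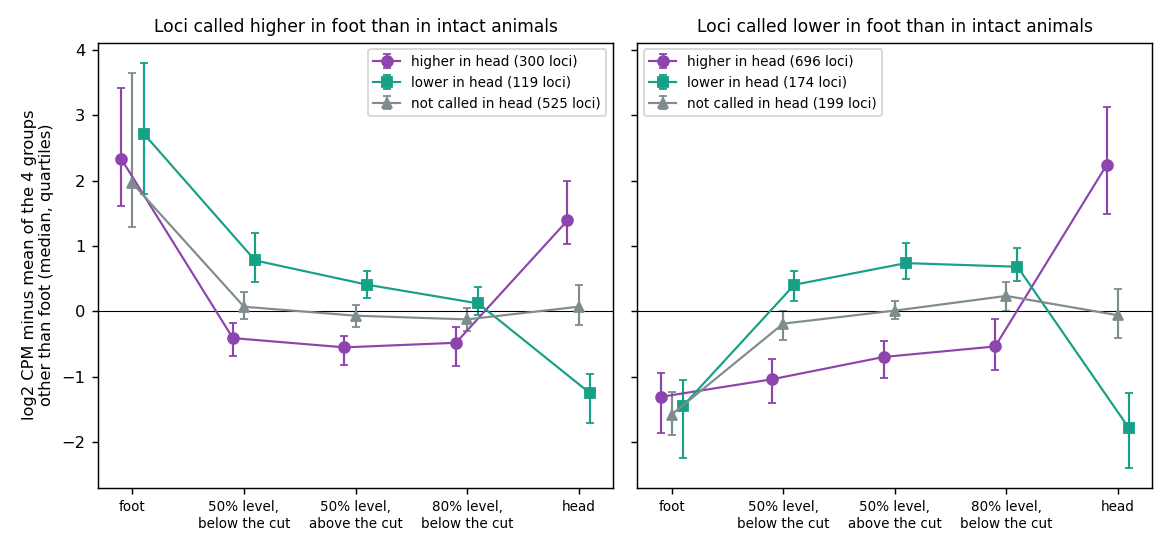
Median log2 CPM with quartiles (points and bars), relative to the mean of the 4 groups other than foot, for loci called higher (left) or lower (right) in foot than in intact animals, divided by their call in head against mid-gastric tips at 0 h. Positions run from the foot to the head. On the left the 300 loci also raised in the head form a curve high at both ends, and on the right the 174 loci lower in the head form a curve high in the column, shapes that follow from how the loci were chosen.

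The loci of the foot were followed while a foot was regrown. At 48 h after section, basal tips against basal tips at 0 h gave 6.12% of all loci called higher and 2.85% called lower. Of the 944 loci called higher in the foot, 606 (64.2%) were called higher and 2 were called lower in the basal tip at 48 h. These 606 made up 47.5% of all loci called higher in that contrast. The median log2 fold change of the 944 loci was 1.75, against 0.034 over all loci. In apical tips of the 50% level, 171 of the 944 (18.1%) were called higher and 58 (6.14%) lower at 48 h, where 6.01% and 2.13% of all loci were. In apical tips of the 80% level, 169 (17.9%) were called higher and 36 (3.81%) lower, where 6.27% and 2.07% of all loci were.

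The difference between the basal and apical changes at the 50% level was tested as an interaction, which called 2.75% of all loci with the greater change in basal tips and 3.83% with the greater change in apical tips. Among the 944 loci, 385 (40.8%) changed more in basal tips and 4 changed more in apical tips. Without replicate C in every group concerned, 240 of 813 such loci changed more in basal tips. The loci called lower in the foot mostly moved in the opposite directions where they were called. Of the 1069, 351 (32.8%) were called lower and 43 (4.02%) higher in basal tips at 48 h, where 2.85% and 6.12% of all loci were. The 351 made up 59.0% of all loci called lower there. In apical tips of the 50% level, 454 (42.5%) were called higher and 80 (7.48%) lower, where 6.01% and 2.13% of all loci were. In apical tips of the 80% level, 412 (38.5%) were called higher and 122 (11.4%) lower, where 6.27% and 2.07% of all loci were. Both directions thus exceeded the shares of all loci in apical tips. By the interaction test, 494 (46.2%) changed more in apical tips and 4 more in basal tips.

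The median rise of the foot loci in basal tips was late, while the upper quartile rose earlier. Their median log2 CPM relative to 0 h was 0.0058 at 0.5 h, 0.24 at 2 h and 0.16 at 8 h. By 16 h it was 0.28 and by 24 h 0.77, after which it reached 1.29 at 36 h and then 1.65 at 48 h. The upper quartile was 0.70 at 2 h and 1.01 at 16 h, against 0.27 and 0.25 over all loci. In apical tips of the 50% level the median of the same loci stayed between -0.035 and 0.22 at all times, and in apical tips of the 80% level it reached 0.27 at 48 h. The loci called lower in the foot had a median of -0.33 at 16 h and -0.61 at 48 h in basal tips. In apical tips of the 50% level it was -0.16 at 16 h and then, by 48 h, 0.79. The 944 loci took 3.67%, 4.54% and 4.04% of the reads in basal tips at 48 h, against 0.810%, 0.898% and 0.815% at 0 h. In mature feet they took 7.34%, 7.13% and 4.95%, values that the choice of these loci favours. The 426 loci chosen in basal tips, where the choice favours the tips, took 6.36%, 5.98% and 3.97% of the reads in foot replicates A, B and C, against 3.93%, 4.18% and 4.35% in basal tips at 48 h. Foot replicate C lay within the range of the tips for these loci.

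**Figure D4:**
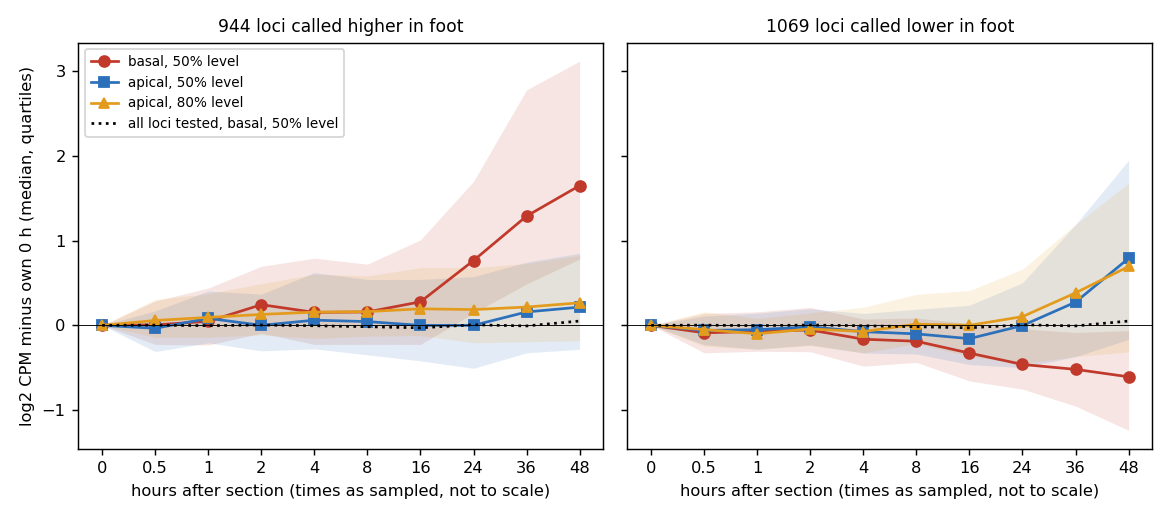
Median log2 CPM relative to 0 h of the same series (lines, with quartiles as bands) at 10 times after section, for 944 loci called higher (left) and 1069 called lower (right) in foot. On the left the basal series climbs from 24 h to 1.65 at 48 h while the apical series stay at or below 0.27, and on the right the basal series ends at -0.61 and the apical series above 0.

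At the level of single sequences, 3233 of 54272 were called (5.96%), 1265 higher in the foot (2.33%) and 1968 lower (3.63%). They belonged to 2283 loci. The called loci and the called sequences overlapped only in part. Of the 2013 called loci, 1619 held a called sequence and 394 held none. A further 664 loci held a called sequence although their summed reads were not called. In 63 loci, 0.573% of those with at least 2 tested sequences, some sequences were called higher and others lower in the foot. Of these, 10 loci were called higher as a sum, 16 lower and 37 not at all. This count fell to 38 without replicate A and to 36 without replicate B. Sequences of a locus can share reads, and how the reads were divided among them by the authors' quantification was not tested.

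From 443 sequences that met the naming rule (log2 CPM averaging 5 or more and groups that do not overlap), the 2 with the largest rise and the 2 with the largest fall in different loci are described. Their values were part of the rule. Each standard error (SE) was taken from the F statistic of the fit, whose square root is the ratio of the fold change on the log2 scale to its SE.

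The sequence seq21712_loc09059_vl0034941 stood at 965, 753 and 299 CPM in foot replicates A, B and C, against 66.6, 27.8 and 35.9 CPM in intact replicates A, B and C. The groups did not overlap, although foot replicate C was well under the other feet. On the log2 scale the foot was 3.95 higher (SE 0.74, edgeR adjusted p = 4.24e-05). Outside the comparison it was high in basal tips late in regrowth. It averaged 0.0509 ± 0.0473 CPM in heads (SD, n = 3) and at most 0.650 CPM in any of the 3 groups of tips at 0 h. In basal tips the mean was 0.0425 CPM at 0 h and 7.44 CPM at 24 h. By 36 h it was 204 CPM and by 48 h 565 ± 83 CPM, while in apical tips of the 50% level it was 0.196 ± 0.135 CPM at 48 h. Its locus holds 2 sequences, both called higher in the foot, and averaged 798 ± 413 CPM in feet, against 58.7 ± 24.6 CPM in intact animals (SD, n = 3 each). The 48 h basal tips lay within the range of the mature feet, after a level at 0 h near the limit of counting.

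The sequence with the largest rise, seq45098_loc16437_tr0610659, behaved differently at the level of its locus. It stood at 119, 131 and 102 CPM in foot replicates A, B and C, against 4.61, 3.25 and 10.4 CPM in intact replicates A, B and C, which fitted as a 4.27 difference on the log2 scale (SE 1.27, edgeR adjusted p = 0.0173). The foot values were even and apart from the intact values. In heads, however, it stood at 3.82, 305 and 134 CPM in replicates A, B and C, a range wider than the difference between foot and intact animals. The sequence also spread widely in some tips, with 6.31, 6.9 and 331 CPM in apical tips of the 80% level at 0.5 h. It was even in others, with 10.5, 10.2 and 8.04 CPM in basal tips at 2 h. It is 1 of 24 sequences of its locus, and in the foot 6 others of that locus were called lower. The sum of the locus averaged 1510 ± 222 CPM in feet, against 1800 ± 279 CPM in intact animals (SD, n = 3 each), or -0.26 on the log2 scale (SE 0.41, edgeR adjusted p = 0.753). The sequence took 7.95% of the reads of its locus in feet and 0.330% in intact animals. The call per sequence was also lost in fits without intact replicate A or B and without any single letter of replicates. Log2 fold changes were 3.85 to 4.99 over these fits. It was kept in 12 of 18 alternatives, among them DESeq2 (DESeq2 adjusted p = 0.00081) and the replicate block (edgeR adjusted p = 0.00336).

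The sequence that fell most, seq61736_loc21116_vl0014577, had 0 reads in each of the 3 foot libraries, against 101, 70.2 and 115 CPM in intact replicates A, B and C. With the foot placed at 3 reads per library, it was at least 1120-fold lower in the foot (edgeR adjusted p = 1.3e-06). The levels of this sequence along the body had a sharp edge at the 50% level. In tips at 0 h it stood at 434, 252 and 274 CPM below the 80% level and at 89.2, 106 and 84.2 CPM just above the 50% cut, and it had 0 CPM in all 3 libraries just below that cut. In heads it stood at 86.9, 105 and 85.8 CPM. At 0 h, tissue on the upper side of the mid-gastric section thus held the sequence while tissue on the lower side held none that was detected, nor did the foot. At 1 h the lower-side tips stood at 11.6, 0 and 0 CPM in replicates A, B and C. In basal tips the mean was 5.34 ± 5.56 CPM at 48 h, against 93.2 ± 11.5 CPM at 0 h, and in apical tips of the 50% level it was 9.56 ± 8.09 CPM at 48 h. Both sequences of its locus were called lower in the foot, and the locus averaged 0.0458 ± 0.0793 CPM in feet, against 134 ± 34.7 CPM in intact animals. The sum of the locus differed less along the body than the sequence. On the log2 scale, heads over mid-gastric tips at 0 h gave 3.38 for the sum and 7.29 for the sequence. In apical tips of the 50% level the rise from 0 h to 48 h was 3.52 and 11.3. The sharp edge is thus described for the sequence only.

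The sequence seq68482_loc22963_tr0630623 had 2, 3 and 0 reads in foot replicates A, B and C, against 3598, 3155 and 3584 reads in intact replicates A, B and C. This gave 0.0614, 0.0825 and 0 CPM in the feet, against 114, 95.8 and 118 CPM in the intact animals. The level in intact animals was 2270 times that in feet, with a 95% interval of 987 to 7090 that covers the counting error of the foot reads only (edgeR adjusted p = 1.23e-09). Its level was lower at each position from the head to the tissue below the 50% cut. It averaged 242 ± 24.5 CPM in heads, 145 ± 54.6 CPM at the 80% level, 8.59 ± 1.31 CPM just above the 50% cut and 0.242 ± 0.207 CPM just below it (SD, n = 3 each). In apical tips of the 50% level it averaged 17.3 ± 5.55 CPM at 48 h, and in basal tips it fell to 0.931 ± 0.643 CPM at 48 h. Of the 9 sequences of its locus, 8 were called lower in the foot and none higher, and the locus averaged 1.16 ± 0.308 CPM in feet, against 790 ± 90.9 CPM in intact animals.

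**Figure D5:**
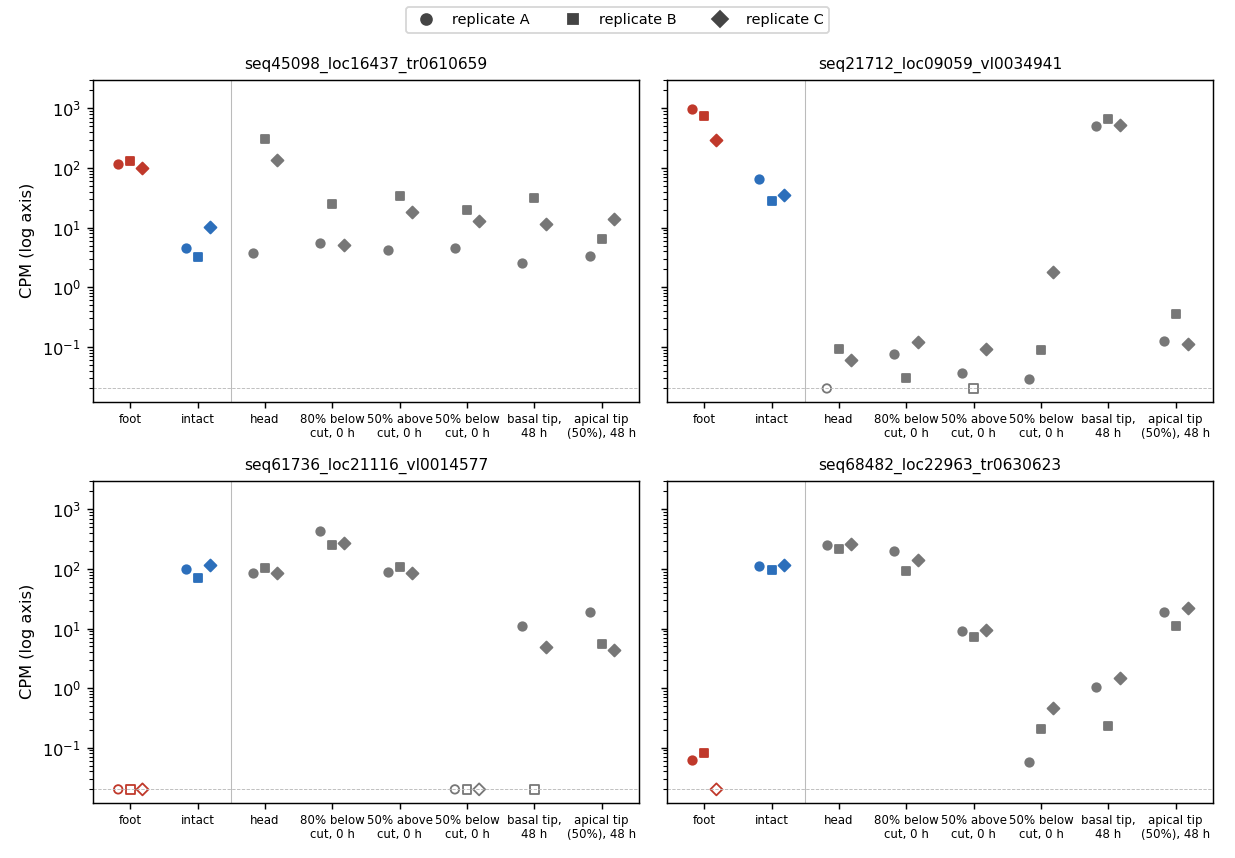
CPM on a log axis of the 4 named sequences in 8 groups of 3 libraries (marker shapes are replicates A, B and C), feet in red, intact animals in blue, other groups in grey. Open markers on the dashed line are libraries with 0 reads. The upper right sequence is high in feet and basal tips at 48 h, the upper left sequence spreads widely among heads, and both lower sequences drop between the tips just above and just below the 50% cut.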

How the data were processed

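PolyA-selected RNA was sequenced from directional Illumina TruSeq libraries, per the labels' protocols. The submitters' processing notes name cutadapt 1.11, Salmon 0.7.2 and DESeq2 without their roles. The authors deposited estimated counts as whole numbers for 79774 sequences in 25879 loci. What transcriptome the reads were set against, and any filter, is not given in the sources used here. A second deposited table holds a normalized signal for 40479 sequences, equal to the counts times a factor per library (0.652 to 1.26), and served an alternative.

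Sequences, or reads summed per locus, were filtered with filterByExpr, scaled by TMM (factors 0.952 to 1.09 for loci in the 6 libraries) and fitted over all 99 libraries in 33 groups of 3 with edgeR 4.0.16 (trended dispersion, quasi-likelihood F-test, legacy = TRUE, R 4.3.3). This left 54272 sequences and 20883 loci, and 99.9% of the reads in sequences. DESeq2 1.42.0 and limma 3.58.1 served alternatives. The fit was tested on simulated data, where most changes of 2 on the log2 scale and few of 1 passed the adjusted p. The simulation gave all features the same dispersion and placed changes only in well counted features. It therefore does not cover loci near the counting limit or loci whose spread differs from that dispersion. How often changes of 1 pass in these data cannot be read from it. With no fold-change minimum 4087 loci passed the adjusted p here, against 2013 with the minimum of 1. Plots used Python 3.11.15 and its library matplotlib 3.10.9. Relative log2 CPM values used a prior count of 2.

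The named sequences follow a rule: called, mean log2 CPM of at least 5, groups not overlapping, the 2 highest and 2 lowest fold changes in different loci. The comparison and lists were chosen with earlier results of these data known. The design text calls the replicates biological and does not say whether they came from separate cultures. The p-values measure the spread between samples within groups, pooled over all 33 groups and not over the 6 libraries alone. Fitted on the 6 libraries alone, seq21712_loc09059_vl0034941 had an edgeR adjusted p of 0.00395, against 4.24e-05. For seq45098_loc16437_tr0610659 it was 0.00137, against 0.0173. Reads carry no molecular identifiers, so intervals and floors cover counting error only.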

Additional observations from a re-analysis of the deposited data

Results flagged for a closer look

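The changes between 0 h and 48 h of 3 of the 4 named sequences differed between basal and apical tips of the 50% level by the interaction test. For seq21712_loc09059_vl0034941 the basal change exceeded the apical change by 15.2 on the log2 scale (edgeR adjusted p = 2.87e-10), and the change was up in 3 of 3 basal libraries. For seq61736_loc21116_vl0014577 the difference was -15.4 (edgeR adjusted p = 1.6e-05), against -7.25 for the sum of its locus (edgeR adjusted p = 4.2e-07). For seq68482_loc22963_tr0630623 it was -9.31 (edgeR adjusted p = 1.01e-06). Both sequences fell in basal tips and rose in apical tips. Groups with few or 0 reads enter these differences, so their sizes depend on the small count added in the fit and are not bounds. Groups of 3 libraries were too small for a test of single outlying libraries, and none was run. The lower values of foot replicate C are described above.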

How the results depend on the processing

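Counts of calls moved with the fold-change minimum. With none, and then with a log2 fold change of at least 2, foot against intact gave 4087 and 957 loci and 5026 and 1698 sequences, and opposite calls were found in 98 and 26 loci. By the same pair of rules, 1973 and 407 loci were higher in the foot. Of these, 1220 and 299 (61.8% and 73.5%) were higher in basal tips. In apical tips, 523 and 40 (26.5% and 9.83%) were higher at the 50% level, and 523 and 34 (26.5% and 8.35%) at the 80% level. In heads 985 and 71 (49.9% and 17.4%) were higher, and 587 and 208 (29.8% and 51.1%) had the greater change in basal tips. Of 2114 and 550 loci lower in the foot, 1173 and 368 (55.5% and 66.9%) were higher in heads. The greater change was in apical tips for 818 and 238 (38.7% and 43.3%). Shares of all loci by these rules are not given here, except 7.57% higher in heads at the minimum of 2.

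Leaving out replicates gave 1648 to 2028 loci, 2351 to 3030 sequences and 36 to 61 loci with opposite calls. It left 709 to 958 foot-higher loci. Of these, 490 to 614 (60.8% to 69.8%) were raised in basal tips. In apical tips, 117 to 181 (16% to 21%) were raised at the 50% level and 126 to 185 (15.9% to 20%) at the 80% level. In heads it was 208 to 312 (29.3% to 35.4%), and by the interaction 240 to 385 (29.5% to 46.5%). Of 894 to 1112 foot-lower loci, 565 to 739 (61.9% to 67%) were higher in heads. By the interaction, 376 to 486 (39.8% to 47.9%) changed more in apical tips. Shares of all loci in these fits are not given here.

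With the replicate letter as a block, 2054 loci and 3449 sequences were called. Same-letter foot and intact libraries showed no steady pairing: their deviations correlated at -0.06, -0.025 and 0.22 over 9811 loci. Not every library correlated best with its own letter. Whether a letter marks a batch shared with other groups was not tested. In a fit of the contrast's libraries alone with the replicate block, 1765 loci and 2157 sequences were called, and 41 loci held opposite calls. Of the 856 foot-higher loci by that fit, 94 (11.0%) rose in apical tips of the 50% level. DESeq2 called 2011 loci and 3826 sequences.

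For seq45098_loc16437_tr0610659 the log2 fold change was -0.26 when reads were summed per locus (edgeR adjusted p = 0.753, within a range of 0.00081 to 0.753 over its alternatives), and the cause was not tested. The other 3 named sequences kept their direction and call in 18 of 18 alternatives each. Depth limits loci at or under 3 reads per library, which is 0.0815 to 0.1 CPM here. Fits that leave out a single library were partly added after the data were seen, as were the interaction and limma on the authors' normalized values for the named sequences.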

Other observations

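Calls were spread over the range of expression. Of 6140 loci under 1 CPM, 3.06% were higher and 5.18% lower in the foot. Of 5887 loci from 1 to 10 CPM these shares were 7.08% and 6.56%, of 7171 loci from 10 to 100 CPM 3.67% and 4.11%, and of 1685 loci at 100 CPM and over 4.51% and 4.15%.

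Loci higher in the head than in mid-gastric tips took 11.6%, 10.5% and 10.1% of the reads in foot replicates A, B and C, against 11.4%, 12.2% and 11.0% in intact replicates A, B and C. These ranges overlap, although 696 of these 3530 loci were called lower in the foot and 300 higher.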
